A study of Mus musculus with 30 samples.

Results

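The aminoacyl-tRNA synthetases of cultured mouse extraocular muscle were followed over 48 h. Members were all probe sets on the A and B arrays whose single platform symbol named a cytosolic or a mitochondrial synthetase. The name pattern found 36 genes, 20 cytosolic and 16 mitochondrial, among 18193 genes with a single symbol on the arrays. They were read by 74 probe sets, 48 of type A and 26 of type B. Of these, 60 probe sets for 35 genes passed the filter on dim probe sets, and Aars2, which charges the mitochondrial alanine tRNA, was present only as a dim B probe set.

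Each synthetase joins 1 kind of amino acid to its tRNA, and the charged tRNA is then used by the ribosome. The cytosol and the mitochondrion have separate sets of these enzymes, both encoded in the nucleus, although Gars and Kars each supply both compartments from a single gene and were counted here with the cytosolic set. Several cytosolic synthetases are held together in the multisynthetase complex, while the others work free of it. When amino acids run short, or when the endoplasmic reticulum is stressed, phosphorylation of eIF2 alpha favours translation of the transcription factor ATF4, and several genes for cytosolic synthetases are among its known targets. Mitochondrial synthetases serve only the small set of proteins that mitochondria translate themselves, which are parts of the respiratory chain and the ATP synthase.

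Extraocular muscle, which turns the eyeball, was grown in culture, and its total RNA was hybridised to A and B arrays at 0, 4, 12, 24 and 48 h, with 3 arrays per time and array type, 30 arrays in all. What started the clock, whether each replicate was its own culture, and whether an A and a B array with the same number share RNA are not stated in the labels, so the p-values measure only the spread between these arrays, which may be technical. The labels name no strain, age, treatment or genotype. The B array of 0 h replicate 1 was titled extraocular muscle but carried leg muscle as its source name. It was kept under its title. For synthetases represented by a B probe set, the changes at 48 h are also given without it, beside their values. The 0 calls among mitochondrial genes at 48 h held without it. All 8 muscle markers were measured on the A arrays, and their summed intensity lay between 47520 and 55920 at 48 h and between 45887 and 59861 at 0 h. Of the markers of other cell types, the 4 fibroblast markers on the A arrays summed to 343 to 650 at 48 h and 255 to 346 at 0 h. These ranges overlapped slightly. Among them Col1a1, a collagen gene too dim to be tested, averaged 170 ± 98.1 at 48 h and 34.6 ± 2.99 at 0 h (SD, n = 3 each). Of all 6 fibroblast markers, 3 were tested, and 0 of these had a positive log2 change at 48 h (median -0.16). The part of the fibroblast markers in the results below was not tested. The sums of the 5 endothelial markers (253 to 366 at 48 h, 224 to 369 at 0 h) overlapped. So did those of the 5 leukocyte markers (314 to 462 at 48 h, 366 to 606 at 0 h). The sums of the 2 Schwann cell and 2 adipocyte markers on the arrays overlapped as well. The dimmest endothelial marker, Tie1, had a mean intensity of 1.9 at 48 h, against 1.83 at 0 h, too dim to be tested. The 1 tested endothelial marker had a log2 change of 0.23 at 48 h and was not called. Of the muscle markers, Tnnt3 was called higher and Myod1 lower at 48 h, and none of the tested markers of other cell types was called. Apart from the 3 fibroblast markers, those tested were 1 endothelial, 2 leukocyte, 1 Schwann cell and 0 adipocyte markers, so few genes stand behind this. In bulk RNA, fewer cells of a type and less RNA per cell cannot be told apart. Over all probe sets, arrays of 1 time correlated at 0.962 to 0.979 (type A) and at 0.852 to 0.891 (type B).

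Many cytosolic synthetases were higher at 48 h, and no mitochondrial one was called. Of 20 tested cytosolic genes, 10 rose at 48 h against 0 h and 0 fell, where 3.36% of all 12542 tested genes rose and 1.8% fell. Of 15 tested mitochondrial genes, 0 passed the threshold in either direction, and 2 were higher at an unadjusted limma p under 0.05, where 10.8% of A and 5.57% of B probe sets were. The classes differed in array type. On the A arrays 10 of 18 cytosolic and 0 of 8 mitochondrial genes rose, where 4.2% of probe sets did. The other 2 cytosolic and 7 mitochondrial genes were read on B arrays, where 0.733% of probe sets rose, and none was called. The median log2 change was 0.38 over the cytosolic and -0.06 over the mitochondrial genes, beside 0.03 over all tested genes. A call means a limma p-value under 0.05 after Benjamini-Hochberg adjustment over all probe sets tested on that array type, and each gene is given by its brightest tested probe set, on the A arrays where it has one. Positive changes were found for 17 of 20 cytosolic and 6 of 15 mitochondrial genes, while 52.5% of A and 47.7% of B probe sets were positive. The 48 h arrays lay wholly above the 0 h arrays for 12 cytosolic and 2 mitochondrial genes, as they did for 13.5% of A and 7.21% of B probe sets. The sign turned in some alternative setting or without some array for 10 of the 25 genes that were not called, among them Kars, Qars, Vars, Ears2 and Wars2, so the counts of positive changes are approximate. The contrast between the classes was described by these counts and was not itself tested.

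**Figure D1:**
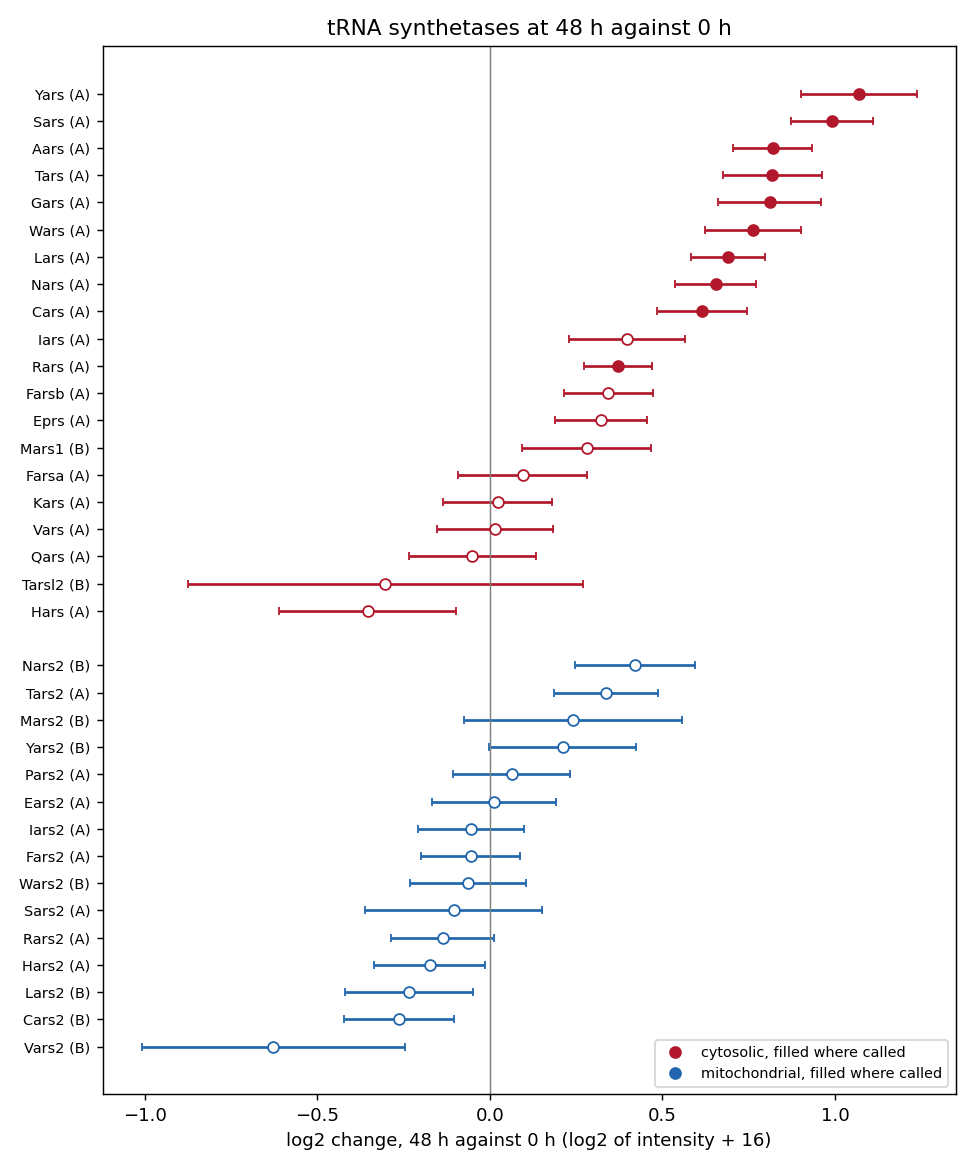
Log2 change at 48 h against 0 h of every tested synthetase (horizontal axis, log2 of intensity + 16), with cytosolic genes above mitochondrial ones, bars of 1 SE and the array type in brackets (3 arrays per time). Filled points passed the threshold, and they comprise 10 cytosolic genes and no mitochondrial gene.

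Among the cytosolic enzymes that work outside the multisynthetase complex, 8 of 13 rose at 48 h, where 3.36% of all tested genes did. Their median log2 change was 0.65. The largest change was that of Yars (probe set 1460638_at), which charges tyrosine tRNA. Its intensity was 2025.4, 2385.0 and 2063.6 at 48 h, against 988.5, 1256.6 and 847.8 at 0 h. Every 48 h array was above every 0 h array, and the change was 2.10-fold (log2 change 1.07 ± 0.17, SE, limma adjusted p = 0.000698). Sars (1426257_a_at), the serine enzyme, had 4342.7, 4395.4 and 3836.1 at 48 h, against 2166.3, 1878.6 and 2260.0 at 0 h. These groups did not overlap either, and the change was 1.99-fold (0.99 ± 0.12, limma adjusted p = 5.3e-05). Aars (1423685_at), which charges alanine tRNA, had 3920.0, 3986.6 and 3387.2 at 48 h, against 2269.1, 2178.4 and 1928.7 at 0 h. The lowest 48 h array stood well above the highest 0 h array, a 1.76-fold change (0.82 ± 0.11, limma adjusted p = 0.00022). Tars (1460323_at), the threonine enzyme, had 2015.2, 1834.9 and 2522.9 at 48 h, against 1385.7, 1112.5 and 1083.3 at 0 h. The 48 h arrays were the more scattered and all lay higher, by 1.76-fold (0.82 ± 0.14, limma adjusted p = 0.0018).

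Gars (1423784_at), the glycine enzyme of both compartments, had 6282.1, 5678.4 and 7370.2 at 48 h, against 4255.9, 3202.8 and 3551.5 at 0 h. All 48 h arrays exceeded the 0 h arrays, by 1.75-fold (log2 change 0.81 ± 0.15, SE, limma adjusted p = 0.0027). Wars (1434813_x_at), which charges tryptophan tRNA and is also known as an interferon-induced gene, had 1953.4, 1904.0 and 1916.0 at 48 h, against 1101.6, 1192.6 and 1092.7 at 0 h. Replicates lay close together at both times and far apart between them, a 1.70-fold change (0.76 ± 0.14, limma adjusted p = 0.0026). Nars (1428666_at), the asparagine enzyme, had 6406.1, 5100.3 and 6088.2 at 48 h, against 4043.4, 3588.9 and 3498.2 at 0 h. There was no overlap, and the change was 1.57-fold (0.65 ± 0.12, limma adjusted p = 0.0022). Cars (1452394_at), the cysteine enzyme, had 1885.9, 2193.1 and 1732.2 at 48 h, against 1375.7, 1312.9 and 1088.1 at 0 h. The groups were separate by a smaller margin than in Sars or Wars, a 1.53-fold change (0.62 ± 0.13, limma adjusted p = 0.0078). The Cars call was lost when arrays were scaled to a common median (0.51, limma adjusted p = 0.0551).

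**Figure D2:**
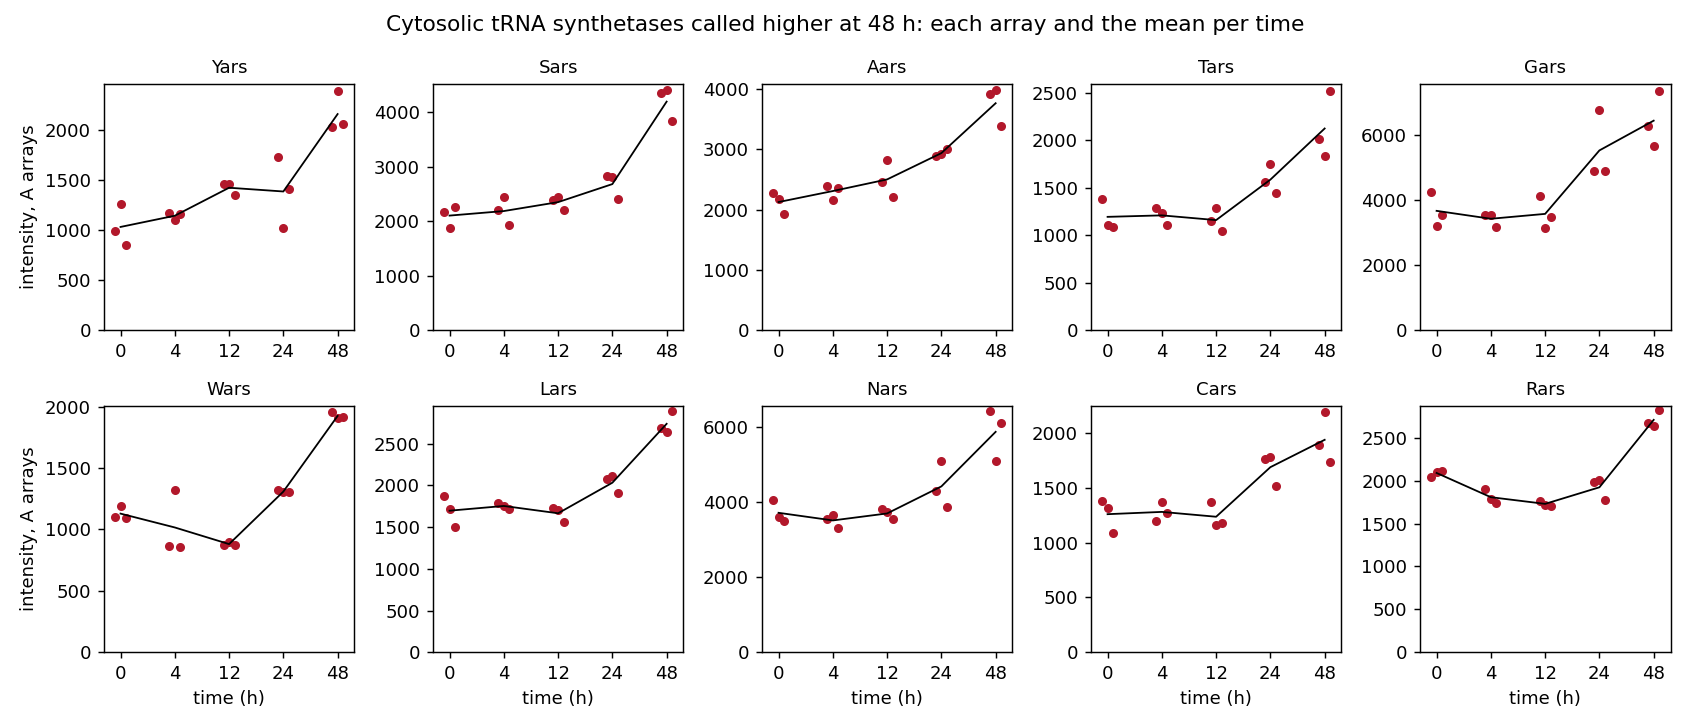
Intensity on each A array (points, vertical axis from 0, scaled per array) and the mean per time (line) of the 10 cytosolic synthetases called at 48 h, with the 5 times evenly spaced on the horizontal axis. Every gene's 3 arrays at 48 h lie above its 3 arrays at 0 h.

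Of the free enzymes that were not called, Farsb and Farsa are the subunits of the cytosolic phenylalanine enzyme. Farsb had a log2 change of 0.34 (limma adjusted p = 0.136) on its brightest probe set, whereas another of its probe sets, 1423708_a_at, averaged 1138 ± 67.3 at 48 h and 692 ± 127 at 0 h (SD, n = 3 each) and passed the threshold (0.72, limma adjusted p = 0.012). Farsa stood at 0.10 and the valine enzyme Vars at 0.01. On the B arrays a further Farsa probe set, 1445003_at, had 207.2, 224.2 and 244.5 at 48 h, against 286.1, 269.8 and 286.1 at 0 h. All its 48 h arrays were lower, as for 7.08% of B probe sets, and it was not called. The first of its 0 h arrays is the one labelled with leg muscle. Another, 1446301_at, averaged 1419 ± 73.3 at 48 h and 1474 ± 231 at 0 h (SD, n = 3 each). The histidine enzyme Hars gave -0.35 (limma adjusted p = 0.485), with 1246.9, 770.7 and 1489.8 at 48 h against 1668.5, 970.1 and 1865.0 at 0 h. Both groups of Hars arrays were widely scattered and overlapped, and its other probe set gave -0.07. Tarsl2, a second cytosolic threonine enzyme measured on the B arrays, gave -0.30 ± 0.57 (SE), or -0.26 without the 0 h array labelled with leg muscle.

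Within the multisynthetase complex 2 of 7 genes rose at 48 h, Lars and Rars, where 3.36% of all tested genes did. The median log2 change of the 7 was 0.32. No gene for the aspartate enzyme was among the members found, so the 7 need not be the whole complex. The difference between free and complex enzymes was not tested. Lars (1448403_at), the leucine enzyme, which is also known as a leucine sensor for the kinase mTORC1, had 2692.5, 2633.5 and 2885.0 at 48 h, against 1868.3, 1721.6 and 1498.2 at 0 h. The groups were clearly apart, and the change was 1.61-fold (0.69 ± 0.11, SE, limma adjusted p = 0.00066). Rars (1416312_at), the arginine enzyme, had 2668.0, 2642.5 and 2820.2 at 48 h, against 2047.0, 2107.5 and 2118.4 at 0 h. Its replicates were close together and did not overlap, and its change was the smallest of those called, 1.29-fold (0.37 ± 0.10, limma adjusted p = 0.03). The Rars call rested on single arrays: the limma adjusted p was 0.103, 0.0651 and 0.0608 without A array 0 h replicate 1, 2 or 3, and 0.0787 and 0.0975 without 48 h replicate 1 or 3, and it was 0.264 under median scaling.

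The other complex enzymes gave mixed values. Iars, the isoleucine enzyme, had a log2 change of 0.40 (limma adjusted p = 0.193) on its brightest probe set, with 2466.2, 1897.4 and 3598.3 at 48 h against 2019.3, 1812.4 and 2004.3 at 0 h. The lowest 48 h array, replicate 2, fell inside the 0 h range, and without that A array the change was 0.61 (limma adjusted p = 0.0247). A further Iars probe set, 1426705_s_at, averaged 2675 ± 122 at 48 h and 1801 ± 120 at 0 h (SD, n = 3 each) and passed (0.57, limma adjusted p = 0.0077). Eprs, which joins the glutamate and proline enzymes in 1 chain, gave 0.32 and, on its other tested probe sets, 0.46 and 0.57, none of them past the threshold. Mars1, the methionine enzyme, gave 0.28 on the B arrays, and 0.13 without the 0 h array labelled with leg muscle. Kars, the lysine enzyme of both compartments, gave 0.02 and the glutamine enzyme Qars -0.05. Other tested Qars probe sets were lower on average at 48 h, and neither was called. Probe set 1456726_x_at averaged 565 ± 27.9 at 48 h and 766 ± 232 at 0 h, and 1456213_x_at 355 ± 28.3 and 419 ± 188 (SD, n = 3 each). The non-enzymatic parts of the complex, Aimp1, Aimp2 and Eef1e1, gave 0.18, 0.19 and 0.29, and 0 of 3 passed (1 at an unadjusted limma p under 0.05).

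Other probe sets of the same genes were read as a check within the arrays. Counted by probe set, 18 of 37 tested cytosolic ones rose at 48 h and 0 fell, against 0 of 23 mitochondrial ones in either direction, where 4.2% of A and 0.733% of B probe sets rose. At least 1 probe set rose in 12 of 20 cytosolic genes, the additional ones being Farsb and Iars, where 3.9% of all tested genes had such a probe set. Of the 10 called genes, 4 had a total of 7 further tested probe sets, all 7 with positive changes (0.44 to 1.13 on the log2 scale) and 6 of them called. Probe set 1415694_at of Wars was present on both array types. On A arrays it averaged 1215 ± 70.7 at 48 h, against 614 ± 44.2 at 0 h (0.97, limma adjusted p = 0.00012), and on B arrays 4707 ± 153 at 48 h, against 2782 ± 417 at 0 h (0.77, limma adjusted p = 0.0066; SD, n = 3 each).

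The promoters of the cytosolic synthetases were searched for TGATGNAA, the core of the C/EBP-ATF response element through which ATF4 and its partners bind, in windows from 250 bases before to 50 bases after the transcript start, on both strands. RefSeq windows on GRCm38.p6 were at hand for 13 of the 20 cytosolic and 14 of the 16 mitochondrial genes. The core was present in 5 of the 13 cytosolic windows (38.5%) and 0 of the 14 mitochondrial ones, where 4.51% of 27025 genes had it. It was present in 4 of the 5 called cytosolic genes with a window, Aars, Gars, Tars and Yars, and in 1 of the 8 that were not called, Iars. Cars, Hars, Lars, Nars, Rars, Vars, Wars, Hars2 and Pars2 had no window in the table. The 5 windows are shown because they hold a match. They belong to 4 called genes and to Iars, which was not called on its brightest probe set. They lie at chr8:111033592-111033891 (plus strand) for Aars, chr6:55037751-55038050 (plus strand) for Gars, chr15:11399609-11399908 (minus strand) for Tars, chr4:129189653-129189952 (plus strand) for Yars and chr13:49681880-49682179 (plus strand) for Iars. Each is written 5′ to 3′ on the gene's strand, with capitals marking the core or its reverse complement TTNCATCA.
Aars: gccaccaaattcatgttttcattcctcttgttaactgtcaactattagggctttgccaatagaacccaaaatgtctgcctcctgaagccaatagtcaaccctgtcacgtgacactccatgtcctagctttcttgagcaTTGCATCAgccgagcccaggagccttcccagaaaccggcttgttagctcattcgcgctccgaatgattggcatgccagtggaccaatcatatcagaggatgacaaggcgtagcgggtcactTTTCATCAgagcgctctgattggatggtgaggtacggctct
Gars: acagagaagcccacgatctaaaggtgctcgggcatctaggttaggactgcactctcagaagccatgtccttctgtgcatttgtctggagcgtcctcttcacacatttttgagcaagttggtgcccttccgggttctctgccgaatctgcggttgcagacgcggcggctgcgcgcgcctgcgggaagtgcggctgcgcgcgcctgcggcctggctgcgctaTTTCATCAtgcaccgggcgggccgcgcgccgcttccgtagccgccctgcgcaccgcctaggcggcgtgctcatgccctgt
Tars: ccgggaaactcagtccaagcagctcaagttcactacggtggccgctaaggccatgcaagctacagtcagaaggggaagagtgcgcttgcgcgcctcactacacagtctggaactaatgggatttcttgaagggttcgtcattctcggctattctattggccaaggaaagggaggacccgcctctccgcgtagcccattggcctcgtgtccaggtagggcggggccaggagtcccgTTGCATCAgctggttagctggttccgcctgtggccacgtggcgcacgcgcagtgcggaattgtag
Yars: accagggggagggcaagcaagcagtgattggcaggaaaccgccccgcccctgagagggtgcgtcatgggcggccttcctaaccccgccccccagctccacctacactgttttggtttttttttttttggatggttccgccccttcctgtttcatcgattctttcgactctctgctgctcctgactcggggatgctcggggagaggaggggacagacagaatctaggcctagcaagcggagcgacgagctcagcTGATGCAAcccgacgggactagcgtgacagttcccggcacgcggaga
Iars: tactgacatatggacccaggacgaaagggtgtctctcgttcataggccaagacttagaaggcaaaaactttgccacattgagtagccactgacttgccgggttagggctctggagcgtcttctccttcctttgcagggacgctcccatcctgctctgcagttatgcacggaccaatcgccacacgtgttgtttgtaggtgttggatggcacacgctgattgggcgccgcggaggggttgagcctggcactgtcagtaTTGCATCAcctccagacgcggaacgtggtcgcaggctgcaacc
In Aars the first match began 112 bases before the start and the second 10 bases after it. The Tars and Gars matches began 15 and 30 bases before the start, and those of Yars and Iars 4 and 8 bases after it. All but the Yars match read on the opposite strand. A match is a run of letters and was not shown here to be bound.

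None of the mitochondrial synthetases passed the threshold at 48 h, and their changes ran from -0.63 to 0.42 on the log2 scale. The largest moderated statistic was that of Nars2, the mitochondrial asparagine enzyme, measured on the B arrays (1433839_at). It had 1829.1, 1671.4 and 1725.0 at 48 h, against 1267.6, 1302.9 and 1320.1 at 0 h. The groups did not overlap, and the log2 change was 0.42 ± 0.17 (SE, limma adjusted p = 0.397). Without the B array labelled with leg muscle it was 0.40 (limma adjusted p = 0.549). The smallest statistic was that of Cars2, the mitochondrial cysteine enzyme (1454186_a_at), with 1167.9, 904.3 and 854.3 at 48 h against 1200.7, 987.0 and 1331.4 at 0 h. Its groups overlapped, and the change was -0.26 ± 0.16 (limma adjusted p = 0.639), or -0.24 without that B array.

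Tars2, the mitochondrial threonine enzyme, was the other gene of the class whose groups were apart, with 644.5, 539.3 and 618.9 on the A arrays at 48 h against 386.0, 507.6 and 533.4 at 0 h. Its log2 change was 0.34 ± 0.15 (SE, limma adjusted p = 0.225), and it passed in 1 alternative, with arrays weighted by their quality (0.50, limma adjusted p = 0.0139). That weighting leaned on A array 48 h replicate 1, which held the highest Tars2 value. Its weight was 5.03, against 0.54 and 0.65 for replicates 2 and 3. The greatest drop, that of the valine enzyme Vars2, came from scattered arrays, with 161.3, 492.7 and 584.2 at 48 h against 741.7, 577.5 and 427.9 at 0 h. It was -0.63 ± 0.38 (limma adjusted p = 0.646), or -0.44 without the B array labelled with leg muscle, and the other Vars2 probe set gave -0.06. The remaining A-array members were the proline enzyme Pars2 at 0.06, the glutamate enzyme Ears2 at 0.01, Iars2 at -0.06, Fars2 at -0.06, Sars2 at -0.11, Rars2 at -0.14 and Hars2 at -0.17. On the B arrays Mars2 stood at 0.24, Yars2 at 0.21, Wars2 at -0.06 and Lars2 at -0.23. Without the B array labelled with leg muscle, Mars2 stood at 0.31, Yars2 at 0.10, Wars2 at 0.04 and Lars2 at -0.26, so the sign of Wars2 turned.

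How far these values could have hidden a change of the cytosolic size was read from their intervals. On the A arrays the median SE was 0.141 for the 18 cytosolic genes and 0.157 for the 8 mitochondrial ones. The 95% upper bounds of 4 of the 8 mitochondrial changes were below 0.38, the median change of all 20 cytosolic genes, and those of the other 4 were not, so a change of that size is not excluded for them. All 8 were below 0.79, the median of the 10 called genes, which are those with large changes, and the highest bound was 0.66, for Tars2. On the B arrays the median SE of the 7 mitochondrial genes was 0.186, and the bounds of 4 were below 0.38 and of 5 below 0.79. The highest B bound was 0.91, for the methionine enzyme Mars2. Brightness differed between the classes: mean intensities ran from 576 to 4529 over the cytosolic and from 206 to 837 over the mitochondrial genes on the A arrays. The part of brightness in the counts was not tested.

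Over the 5 times, 10 cytosolic genes changed by the moderated F-test, the same 10 as at 48 h, and 0 mitochondrial ones, where 5.94% of all tested genes did. The class mean per array, taken as the log2 difference from the 0 h mean over 18 cytosolic genes on the A arrays, was -0.02 ± 0.10 at 4 h, -0.03 ± 0.03 at 12 h, 0.20 ± 0.11 at 24 h and 0.47 ± 0.04 at 48 h (SD, n = 3 each). The 3 arrays at 48 h lay at 0.46, 0.43 and 0.50, above every array of the other times. For the 8 mitochondrial genes on the A arrays the means were -0.04 ± 0.05, -0.03 ± 0.12, -0.13 ± 0.09 and -0.01 ± 0.06 at 4, 12, 24 and 48 h. For the 7 on the B arrays they were -0.11 ± 0.03, -0.01 ± 0.09, -0.01 ± 0.09 and -0.05 ± 0.04. The comparisons with 0 h share the same 0 h arrays.

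**Figure D3:**
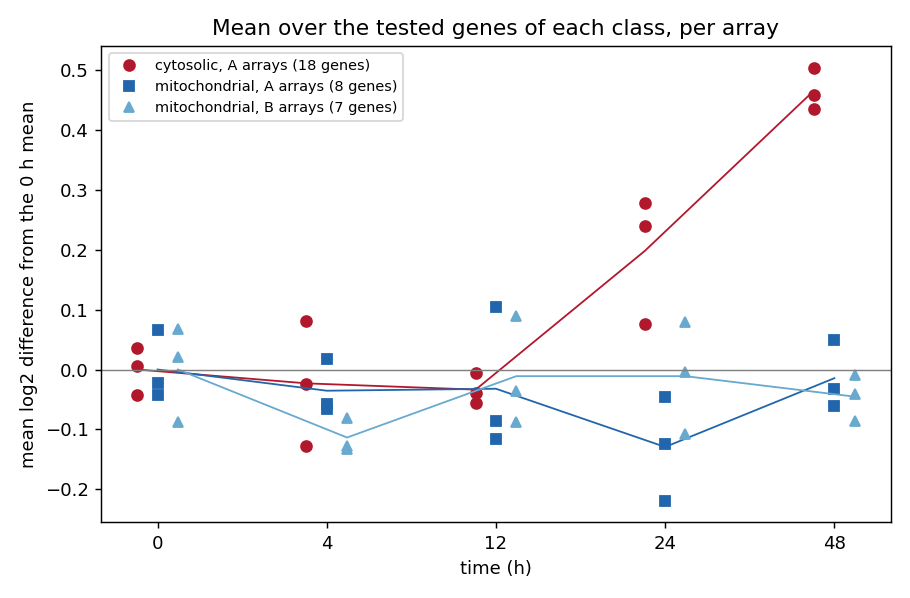
Mean log2 difference from the 0 h mean over the tested genes of each class (vertical axis), 1 point per array and a line through the mean of each time (horizontal axis, 5 times evenly spaced). The cytosolic points reach 0.43 to 0.50 at 48 h, while the mitochondrial points after 0 h lie between -0.22 and 0.11 on the A arrays and between -0.13 and 0.09 on the B arrays.

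At 4 and at 12 h against 0 h, 0 synthetases of either class were called, where 0% and 0.223% of all tested genes rose and 0.0239% and 0.0957% fell. At an unadjusted limma p under 0.05, 0 mitochondrial genes stood out at either time, and 1 cytosolic gene, Rars, was lower at 4 h, where 2.77% of A probe sets were. At 12 h 1 was higher, Yars, and 2 were lower, Rars and Wars, where 6.22% of A probe sets were higher and 6.57% lower. The Rars mean was 2091 at 0 h, 1808 at 4 h, 1730 at 12 h, 1924 at 24 h and 2710 at 48 h. The brightest Wars probe set followed a like course with means of 1129, 1016, 881, 1308 and 1924, but probe set 1415694_at, with 614, 732, 787, 721 and 1215 on the A arrays, was not lower at 12 h, so the early values of Wars differ between its probe sets.

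At 24 h, 2 cytosolic genes were higher, Aars and Gars, and 0 mitochondrial ones, where 2.69% of all tested genes rose and 1.68% fell. Aars had 2889.5, 2919.6 and 3002.8 at 24 h, above all its 0 h arrays (log2 change 0.47, limma adjusted p = 0.0226). Gars had 4910.1, 6782.0 and 4893.5, also above its 0 h arrays (0.58, limma adjusted p = 0.0294). Such a separation held for 11.5% of A probe sets, and both calls were close to the threshold. Aars lost its call without A array 0 h replicate 3 (limma adjusted p = 0.0939) and without 24 h replicate 1, 2 or 3 (0.0693, 0.0711 and 0.0577). Gars lost its call without 0 h replicate 2 or 3 (limma adjusted p = 0.113 and 0.0817) and without 24 h replicate 2 (0.154), and the count for the class ran from 0 to 3 over single left-out arrays. A second Sars probe set, 1452000_s_at, was also called at 24 h (0.60, limma adjusted p = 0.0117), while the brightest one was not (0.35, limma adjusted p = 0.103). At an unadjusted p under 0.05, 8 cytosolic genes were higher at 24 h, where 9.68% of A probe sets were, and the class median was 0.23 beside 0.00 over all tested genes. The mitochondrial median was -0.10, and 1 mitochondrial gene, Iars2, was lower at an unadjusted limma p under 0.05 (-0.33), where 9.89% of A probe sets were.

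Between neighbouring times, 0 synthetases were called at 12 h against 4 h or at 24 h against 12 h, where 0.0957% and 0.0159% of tested genes rose and 0.144% and 0.0558% fell. At an unadjusted limma p under 0.05, Eprs was lower and Ears2 higher at 12 h against 4 h, where 6.86% of A probe sets were lower and 4.65% higher. By the same measure 7 cytosolic genes and 0 mitochondrial ones were higher at 24 h against 12 h, where 3.41% of A probe sets were. At 48 h against 24 h, 2 cytosolic genes rose, Sars and Rars, and 0 mitochondrial ones, where 0.478% rose and 0.0399% fell. Sars had 4342.7, 4395.4 and 3836.1 at 48 h and 2836.6, 2803.3 and 2397.8 at 24 h, without overlap (log2 change 0.64, limma adjusted p = 0.0169). Rars had 2668.0, 2642.5 and 2820.2 at 48 h and 1989.6, 2009.8 and 1771.9 at 24 h, also without overlap, as for 10.7% of A probe sets (0.49, limma adjusted p = 0.0257). These calls were lost without single A arrays: for Sars without 24 h replicate 2 or 3 (limma adjusted p = 0.0515 and 0.079) or 48 h replicate 1 or 2 (0.0965 and 0.0563). For Rars they were lost without 24 h replicate 1, 2 or 3 (limma adjusted p = 0.0685, 0.0786 and 0.104) or 48 h replicate 1 or 3 (0.0965 and 0.114). Further Wars probe sets, 1437832_x_at and 1415694_at, rose over this interval as well (0.79 and 0.74, limma adjusted p = 0.0311 and 0.0073, on the A arrays). At an unadjusted limma p under 0.05, 9 cytosolic genes and 1 mitochondrial gene, Tars2, were higher at 48 h against 24 h, where 6.83% of A probe sets were. The median over the cytosolic genes was 0.29 for 48 h against 24 h and 0.20 for 24 h against 12 h.

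**Figure D4:**
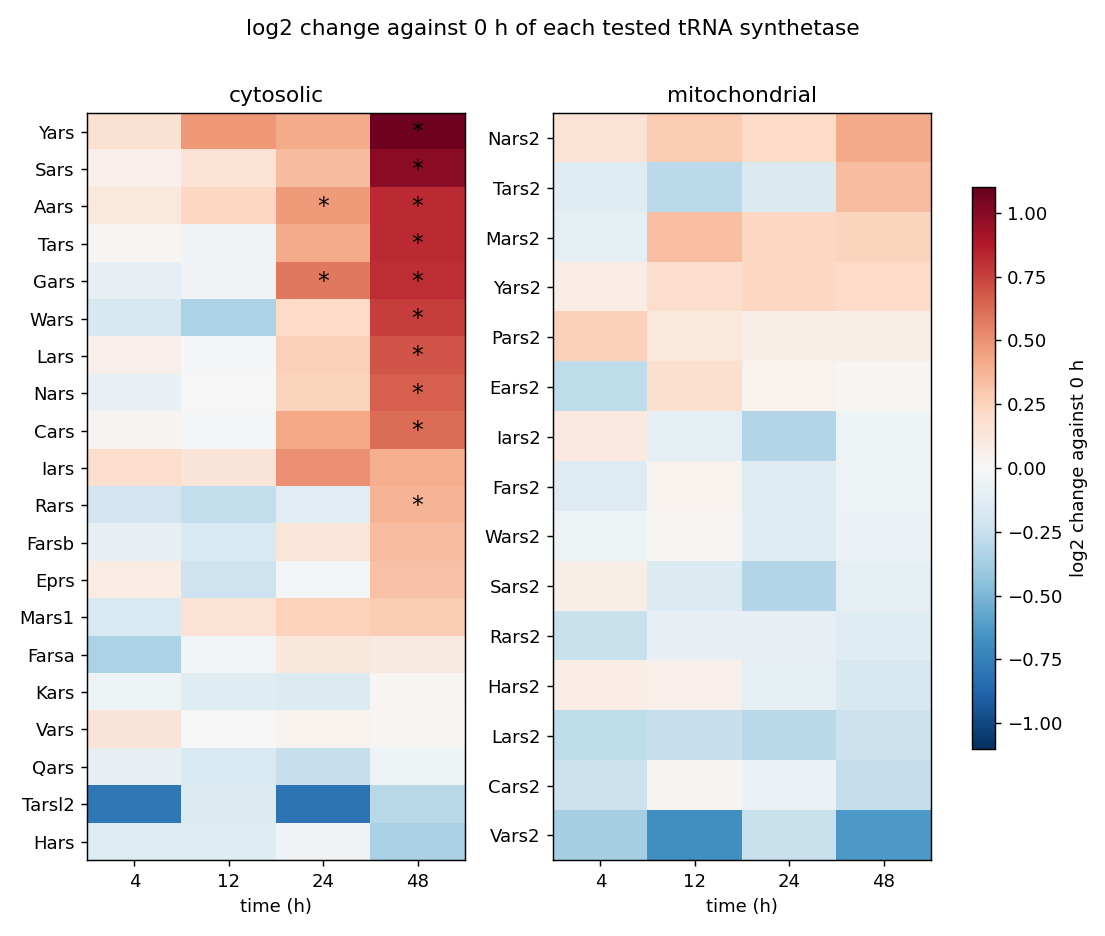
Colour map of the log2 change against 0 h (colour scale, red higher and blue lower) of each tested cytosolic and mitochondrial synthetase at 4, 12, 24 and 48 h. Stars mark calls: 0 at 4 and 12 h, 2 cytosolic genes at 24 h and 10 at 48 h, and no mitochondrial gene at any of these times.

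Other genes around tRNA charging and translation were set beside the synthetases, from lists that had been drawn up with earlier results of these data known. In the ATF4 pathway, 25 of 26 tested genes rose at 48 h and 0 fell, with a median log2 change of 1.34, and 15 had risen at 24 h, with a median of 0.69. Over all tested genes 3.36% rose at 48 h and 2.69% at 24 h. Ddit3, a stress-induced transcription factor, averaged 1545 ± 207 at 48 h and 164 ± 43.4 at 0 h, Cth, an enzyme of cysteine synthesis, 1248 ± 264 at 48 h and 125 ± 15.2 at 0 h, and Chac1, which degrades glutathione, 1755 ± 115 at 48 h and 366 ± 48.2 at 0 h (SD, n = 3 each). Their log2 changes were 3.14, 3.14 and 2.22 (limma adjusted p = 3.2e-07, 3.9e-07 and 7.9e-07), and that of Trib3 was 4.09. Atf4 itself, singled out after its values were seen, averaged 6480 ± 429 at 48 h and 3964 ± 355 at 0 h (0.71, limma adjusted p = 0.0037). The promoter core described above was present in 8 of the 24 pathway genes with a window (33.3%), among them Asns, Chac1, Trib3 and Atf3.

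The translation machinery apart from charging showed no such counts. At 48 h 0 of 14 cytosolic initiation factors and 0 of 6 elongation factors were called, with medians of 0.02 and -0.14. The elongation factor Eif5a was called lower at 24 h, where 1.68% of all tested genes fell. At an unadjusted limma p under 0.05, 1 initiation factor was higher and 1 lower at 48 h, and 1 elongation factor was lower, where 10.8% of A probe sets were higher and 8.9% lower, and 5.57% of B probe sets higher and 4.78% lower. Of 6 eIF2 alpha kinases and partners of the amino acid sensing kinase GCN2, 0 were called, also at an unadjusted limma p under 0.05, with a median of -0.33. On the mitochondrial side, 0 of 76 ribosomal proteins were called at 48 h, with a median of 0.02, and 5 were higher and 2 lower at an unadjusted limma p under 0.05, to be read against the same shares. At 24 h 1 of the 76, Mrps18a, was called lower. Of 18 mitochondrial translation factors and tRNA enzymes 1 fell, Gfm1, a mitochondrial elongation factor (-0.40, limma adjusted p = 0.0494), where 1.8% of all tested genes fell. The Gfm1 call was close to the threshold, and Gfm1 did not pass the moderated F-test over the 5 times (limma adjusted p = 0.178). The median of the 18 genes was 0.08. Among these, Gatb, Gatc and Qrsl1 make up the amidotransferase that completes mitochondrial glutamine tRNA after Ears2 has loaded it with glutamate, and they gave 0.21, 0.31 and -0.17, all short of the threshold.

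**Figure D5:**
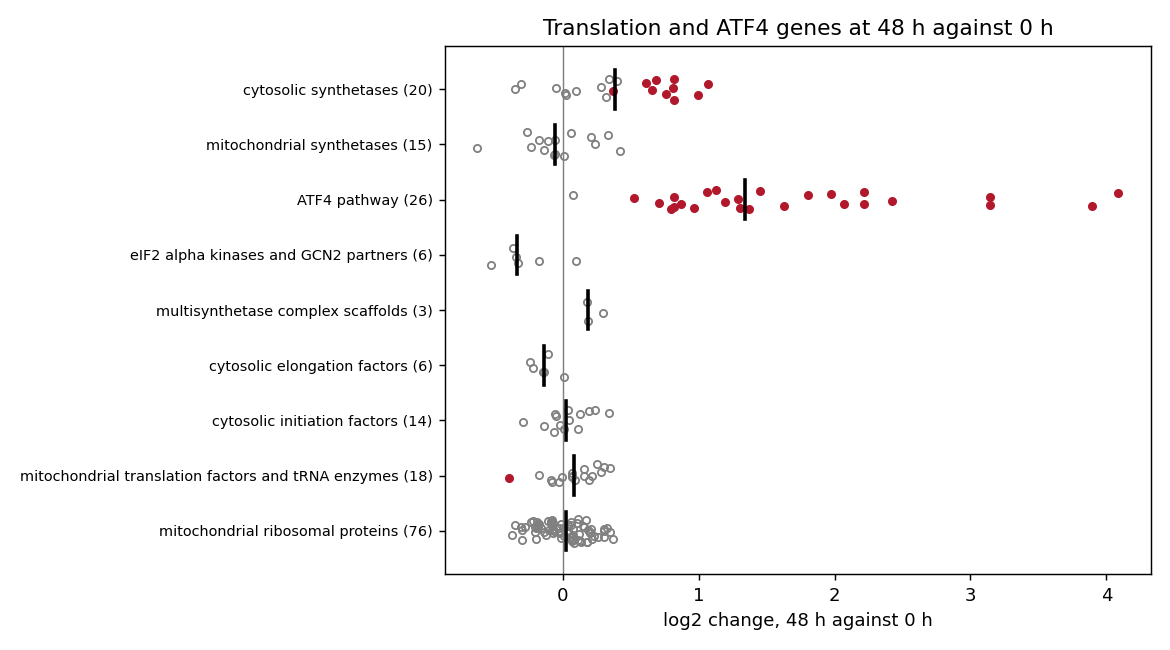
Log2 change at 48 h against 0 h (horizontal axis) of each tested gene of the synthetase classes and of 7 other lists, with the number of genes in brackets, filled points for called genes and a bar at the median. Called genes lie to the right in the cytosolic synthetases (10) and the ATF4 pathway (25), and 1 called gene, Gfm1, lies to the left among the mitochondrial factors.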

How the data were processed

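The deposited files hold 1 linear intensity per probe set and array. The labels name only Affymetrix's standard protocol, and for software, background correction and probe summary the methods were not given in the sources used here. Trimmed of its lowest and highest 2%, every deposited column had the same mean within an array type, so the authors' intensities had been scaled per array, and changes are relative to the array. No A level was set against a B level. Column medians were 154.7 to 181.5 (type A) and 272.8 to 297.7 (type B). Precision is limited by having 3 arrays per time.

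The log2 of intensity + 16 was fitted with limma 3.58.1 in R 4.3.3 (lmFit, 1 mean per time, eBayes with an intensity trend) over the 15 arrays of each type. Control probe sets and those under the 40th percentile of mean intensity (101 for type A, 199.6 for type B) were dropped, and 13577 and 13507 remained. Benjamini-Hochberg adjustment was made per comparison and array type, and calls needed an adjusted p under 0.05. The fit was tested on simulated data. Probe sets with 1 platform symbol were used, and 1 probe set that names a member among several symbols was left out. Values by array are given for the synthetases called at 48 h or by the F-test and for the mitochondrial ones with the largest and smallest statistic. Of other lists at most 4 called genes with the largest statistics are named by rule, and others were chosen after their values were seen. The members, the lists and the division into classes were chosen with earlier results of these data known. Gars and Kars were also left out of the cytosolic class, an alternative added after seeing the data.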

Additional observations from a re-analysis of the deposited data

How the results depend on the processing

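Results were recomputed under 12 other settings and without each of 30 arrays in turn, and no called gene changed sign, while 10 of 25 uncalled genes did in some of them at 48 h. Of the 10 genes called at 48 h, 8 kept the call in all 42, Cars lost it in 1 and Rars in 8. All 10 were read on A arrays, and the array types were fitted separately. Leaving out any of the 15 B arrays therefore could not change these calls, so the 42 overstate how often they were put to a check. Over left-out arrays the cytosolic count was 9 to 11 at 48 h, 0 to 3 at 24 h, 0 to 1 for 24 h against 12 h, 0 to 3 for 48 h against 24 h and 10 to 11 over all times, and the median at 48 h was 0.34 to 0.48. The cytosolic count at 24 h was 1, Aars, with median scaling, no filter, no intensity trend, or Gars and Kars excluded (added after seeing the data). It was 1, Iars, with only the times compared, where Aars and Gars both lost their calls, and 5 with array weights or the mean of a gene's probe sets. For 48 h against 24 h it was 0 with median scaling, 1 with no intensity trend and 9 with array weights, which also gave 1 for 24 h against 12 h. Array weights gave 1 mitochondrial call, Tars2, at 48 h, 1 at 48 h against 24 h and 1 over all times. Among the 48 h A arrays the weights were 5.03 for replicate 1 and 0.54 and 0.65 for replicates 2 and 3, so these counts lean on 1 array. The cytosolic median at 48 h was 0.30 with median scaling and 0.50 with the mean of probe sets, and the mitochondrial median was -0.16 with median scaling. Median scaling moved the median of all A probe sets at 48 h by -0.10, and turned the share of higher among all A calls to 42.7% (340 higher, 457 lower), against 62.7% (570 higher, 339 lower) as deposited. Relative to that median, the cytosolic A genes stood at 0.48 with median scaling and 0.49 as deposited, and the mitochondrial ones at -0.07 in both. Causes of these shifts were not tested.

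Same-numbered arrays were no more alike than other-numbered ones. Deviations of same-numbered A arrays correlated at -0.36 to 0.42 (median -0.0003), and of other-numbered ones at -0.36 to 0.47 (median -0.002). On the B arrays the ranges were -0.10 to 0.11 (median -0.003) and -0.16 to 0.17 (median 0.004). These correlations cannot show what the numbers stand for, which the labels do not state. With the replicate block the cytosolic count at 48 h was 10 and the mitochondrial one 0, as without it, and no other call changed. With 3 arrays per time, the 95% bounds of 4 of 8 A and 3 of 7 B mitochondrial genes still allow a change of the cytosolic median.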
